A study of Mus musculus with 72 samples.

Results

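Tff3, Muc2, Agr2, Spdef, Fcgbp, Zg16, Guca2a and Muc13, a set of 8 goblet cell and trefoil genes, were followed in mouse intestine and liver on a ketogenic diet and on chow. The genes were chosen by name, with the measured level of Tff3 in ketogenic and chow liver and intestine already known, so the diet differences of Tff3 are given as descriptions with no test. Of the 8 genes, 7 had a probe set of their own, among 20771 genes with such a probe set. Fcgbp was represented only on 3 probe sets shared with other genes, and no value is given for it. For each of the other genes there was 1 probe set, and it was the only one.

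Male C57BL/6J mice, 8 weeks old at the start, lived under 12 h of light and 12 h of dark and ate a ketogenic diet or chow over 4 weeks. RNA of 72 samples was hybridised to an Affymetrix mouse gene array, 3 arrays for each of 24 groups: intestine and liver, ketogenic and chow, at 0, 4, 8, 12, 16 and 20 h after lights on (zeitgeber time, ZT). Each tissue therefore had 18 ketogenic and 18 chow arrays. The tissue labels read liver and INTESTINE (IEC). The protocol text shared by all samples also names a daily fructose gavage (4 g/kg for 7 days) and 30% sucrose in the drinking water, and whether these samples received either is not stated. The labels do not say that the arrays of a group came from separate animals, so p-values measure only the spread between these samples.

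Goblet cells are the mucus-secreting cells of the intestinal lining. They store the gel-forming mucin Muc2 in granules and release it together with small proteins, among them the trefoil factor Tff3, which helps the lining to close over injuries. Their formation depends on transcription factors such as Atoh1 and Spdef, and the folding of mucin in the endoplasmic reticulum depends on Agr2. In liver, mucins and trefoil factors are known from the cells that line bile ducts, and which liver cells held Tff3 here was not tested.

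All values are log2(intensity + 16), and array medians were 105 to 119 intensity units in liver and 107 to 121 in intestine. A gene was tested in a tissue when its mean log2 value reached the 40th percentile of all genes there, 6.84 in liver and 6.80 in intestine. "Called" means a Benjamini-Hochberg adjusted p under 0.05 over all genes tested, from limma. Within a group, arrays are named by the number in their title. In intestine, 3 ketogenic arrays stood apart, with spreads around their group means of 2.12 (ZT0, number 1), 1.56 (ZT8, number 26) and 1.55 (ZT20, number 27) times the median array. Calls of named genes that change without them, and the correlations, are also given without them. In intestine 18 of 18 enterocyte and 13 of 13 measured Paneth markers passed the filter, and in liver 14 of 14 measured hepatocyte markers did. Among goblet cell markers, Retnlb and Tff2 lay below the filter in intestine.

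The 7 measured genes were intestinal genes in these arrays. All 7 passed the filter in intestine, and in liver Tff3 alone did, so the other 6 had to differ between tissues and the tissue differences are given as descriptions with no test. The difference (intestine minus liver, log2) was 8.42 ± 0.11 (SE) for Zg16, a lectin-like protein of the mucus layer. It was 7.95 ± 0.05 for Muc13, a mucin anchored in the cell membrane, and 7.79 ± 0.05 for Muc2. It was 7.60 ± 0.07 for Agr2, a protein disulfide isomerase of the endoplasmic reticulum, and 6.90 ± 0.05 for Guca2a, which encodes guanylin, the peptide that activates guanylate cyclase C on epithelial cells. The smallest differences were 4.74 ± 0.09 for Tff3 and 2.66 ± 0.07 for Spdef, an ETS-family transcription factor of goblet cell maturation. For genes this dim in liver the size depends on the pseudocount: with a pseudocount of 1 in place of 16, the difference was 10.09 for Zg16, 9.28 for Muc13 and 8.80 for Agr2, and 4.89 for Tff3. The liver level of Tff3 in this average joins both diets, which differed strongly.

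**Figure D1:**
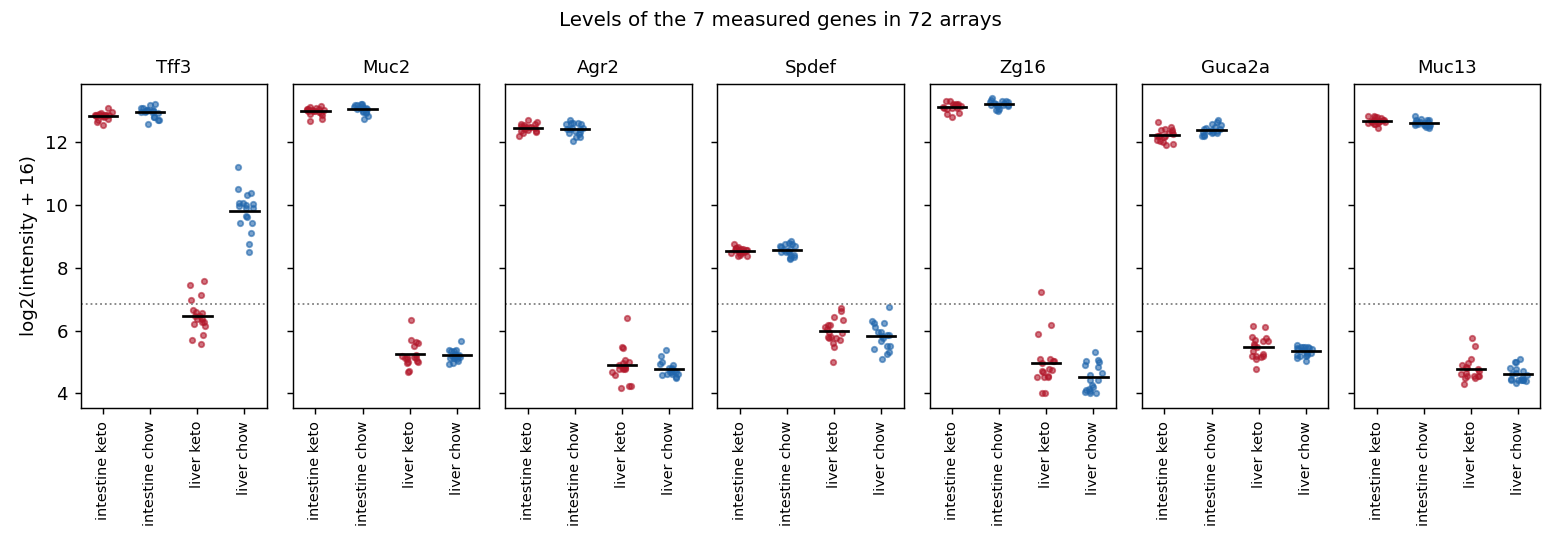
Level of each of the 7 measured genes, log2(intensity + 16), in every array. Each panel shows ketogenic intestine, chow intestine, ketogenic liver and chow liver from left to right, each point is 1 of 18 arrays, the black bar is the mean, and the dotted line is the liver filter at 6.84. Tff3 in chow liver averages 9.82 and is the only liver mean over that line.

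Tff3 was low in ketogenic liver and well measured in chow liver. Over the 18 ketogenic liver arrays its lowest, median and highest levels were 5.56, 6.41 and 7.57. Over the 18 chow liver arrays they were 8.49, 9.93 and 11.21. The highest ketogenic array lay below the lowest chow array. The means were 6.48 ± 0.54 in ketogenic liver and 9.82 ± 0.64 in chow liver (SD, n = 18 each), a difference of -3.34 ± 0.16 (SE; 95% interval -3.66 to -3.01), or 10.1-fold on the log2(intensity + 16) scale. Over all 12463 genes tested in liver, 116 (0.931%) had 18 ketogenic and 18 chow arrays that did not overlap. In untransformed units the mean intensity was 79.5 in ketogenic liver and 973 in chow liver. The ketogenic mean lay below the filter value of 6.84, so Tff3 entered the liver tests through its chow level.

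The gap was present at every ZT. At ZT0 the 3 ketogenic liver arrays read 6.21, 6.27 and 6.36, and the 3 chow liver arrays 9.09, 9.42 and 9.65. At ZT4 the ketogenic arrays read 5.71, 6.27 and 6.48, and the chow arrays 9.60, 10.05 and 10.05. At ZT8, where chow liver varied most, the ketogenic arrays read 5.56, 5.85 and 6.58, and the chow arrays 8.49, 8.75 and 10.52. Through the light phase no ketogenic array reached the filter value. At ZT12 the ketogenic arrays read 6.15, 6.57 and 7.45, and the chow arrays 9.43, 9.91 and 9.95. At ZT16 the ketogenic arrays read 6.37, 6.46 and 7.57, and the chow arrays 10.02, 10.36 and 11.21. At ZT20 the ketogenic arrays read 6.64, 6.97 and 7.13, and the chow arrays 9.90, 10.00 and 10.33. The difference of the group means lay between -3.75 (ZT4) and -3.04 (ZT12). Ketogenic arrays below chow arrays at all 6 ZT were seen for 206 of 12463 genes (1.65%). Leaving out any single liver array kept the difference between -3.40 and -3.23, and it was -3.43 without the chow arrays ZT8 number 12 and ZT12 number 17, a pair taken from earlier results of these data. Their spread was 1.23 and 1.21 times the median liver array, and 4 liver arrays had a larger one (1.33 to 1.42), each of which is among the single omissions.

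**Figure D2:**
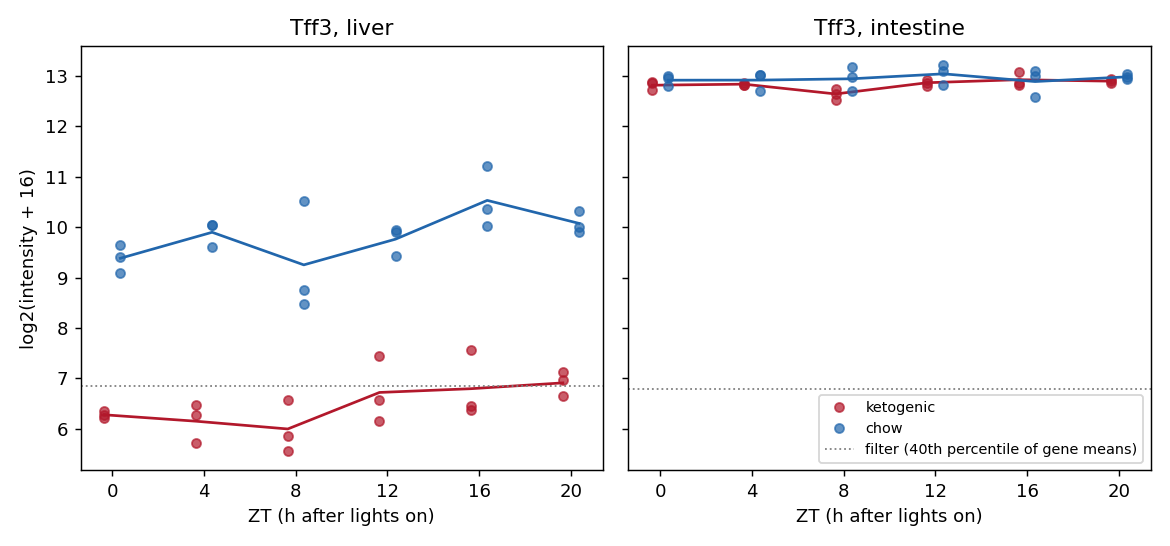
Tff3 by time of day, log2(intensity + 16) against ZT in hours, in liver (left panel) and intestine (right panel). Points are single arrays, 3 for each diet and ZT, lines join the group means, and the dotted line is the filter value of the tissue. In liver every ketogenic point lies below every chow point, and in intestine the points of both diets overlap at all 6 ZT.

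Intestinal Tff3 stayed close to its chow level. Its lowest, median and highest levels were 12.53, 12.85 and 13.08 over 18 ketogenic intestine arrays. They were 12.57, 12.98 and 13.21 over 18 chow intestine arrays, so the ranges nearly coincide. The means were 12.83 ± 0.12 in ketogenic intestine and 12.95 ± 0.17 in chow intestine (SD, n = 18 each), a difference of -0.12 ± 0.05 (SE; 95% interval -0.22 to -0.02), or 1.08-fold. The ranges of 3 ketogenic and 3 chow arrays overlapped at all 6 ZT, where 1.67% of genes tested in intestine had ketogenic arrays below chow arrays at every ZT and 0.313% had 18 ketogenic and 18 chow arrays apart. The intestinal difference minus the liver difference was 3.22 ± 0.17 (SE; 95% interval 2.88 to 3.57). Without the 3 intestine arrays that stood apart and the 2 liver arrays named above, it was 3.30.

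None of the other 6 genes was measurable in liver by the filter. Muc2 averaged 5.24 ± 0.39 in ketogenic liver and 5.21 ± 0.18 in chow liver, and Agr2 averaged 4.89 ± 0.52 in ketogenic liver and 4.77 ± 0.23 in chow liver. Spdef averaged 5.97 ± 0.42 in ketogenic liver and 5.81 ± 0.42 in chow liver. Guca2a averaged 5.48 ± 0.36 in ketogenic liver and 5.34 ± 0.15 in chow liver, and Muc13 averaged 4.78 ± 0.37 in ketogenic liver and 4.61 ± 0.24 in chow liver (all SD, n = 18 for each diet). Zg16 averaged 4.97 ± 0.78 in ketogenic liver and 4.51 ± 0.43 in chow liver, with its lowest arrays at 4.00, the value of an intensity of 0 on this scale. These 6 genes were therefore not tested for diet in liver.

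The other trefoil genes, Tff1 and Tff2, are neighbours of Tff3 in the RefSeq gene order. Tff1, a trefoil peptide of the stomach lining, averaged 8.04 ± 0.16 in ketogenic liver and 7.98 ± 0.10 in chow liver (SD, n = 18 each), a difference of 0.06 ± 0.04 (SE; limma adjusted p = 0.206). In intestine Tff1 was higher on the ketogenic diet, 7.86 ± 0.17 against 7.69 ± 0.12 on chow, a 1.12-fold difference (limma adjusted p = 0.00613). Tff2 lay below the filter in both tissues and was not tested, at 6.44 ± 0.13 in ketogenic liver and 6.25 ± 0.10 in chow liver.

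Liver markers of bile duct cells, hepatocytes and adipocytes are counted here beside all genes. Of the 12463 genes tested in liver, 2402 were called higher and 3616 lower on the ketogenic diet. Of 16 measured bile duct cell (cholangiocyte) markers 7 were tested, of which 0 rose and 3 fell (among them Aqp1 and Slc4a2), and 48.3% of all genes tested in liver were called in either direction. The largest difference among them was that of Onecut1, a transcription factor gene that hepatocytes also express, at 11.07 in ketogenic and 11.76 in chow liver, a difference of -0.68 ± 0.29 (SE; limma adjusted p = 0.0550). Their median difference was -0.15, and their mean level per array spanned 8.93 to 9.45 in ketogenic liver and 8.94 to 9.69 in chow liver. Of 14 hepatocyte markers 2 rose and 5 fell, with a median of -0.01. Of 8 measured adipocyte markers 4 were tested, and Adipoq, Lep, Retn and Cidea lay below the filter. Of the 4 tested, 3 rose: the complement factor gene Cfd by 2.81, the lipid droplet gene Cidec by 2.78 and the lipid droplet gene Plin1 by 0.13. Fabp4 differed by 0.0091 (limma adjusted p = 0.913). The part of these cell types in the Tff3 difference was not tested, and in whole tissue fewer cells of a type and less RNA per cell cannot be told apart.

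Tff3 had no called daily rhythm in chow liver, where it was measurable. A cosinor of 24 h gave an amplitude of 0.43 ± 0.16 (SE) with its peak at ZT 17.2 h (limma adjusted p = 0.144; unadjusted p = 0.0444), and 17.6% of genes were called rhythmic in chow liver. Without the chow array ZT8 number 10 limma's adjusted p was 0.0492. In ketogenic liver, where the mean of Tff3 lay below the filter value, the amplitude was 0.46 ± 0.16 with its peak at ZT 17.1 h, given as a description with no test.

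By likeness of pattern, the genes closest to Tff3 over the 36 liver arrays were Gm2a, Serpina12, Rnd2, Khk, Bmyc and Pygl. Pearson r was 0.95 for Gm2a, which encodes a lysosomal activator of ganglioside breakdown, and 0.934 for Serpina12, the serpin known as vaspin. It was 0.931 for Rnd2, 0.930 for Khk, the ketohexokinase of fructose breakdown, 0.929 for Bmyc and 0.925 for Pygl, the liver glycogen phosphorylase. All 6 were lower on the ketogenic diet, with differences of -0.81 ± 0.03 (SE) for Gm2a, -1.52 ± 0.08 for Serpina12, -1.19 ± 0.07 for Rnd2, -0.95 ± 0.04 for Khk, -0.98 ± 0.05 for Bmyc and -0.64 ± 0.03 for Pygl. These r values contain the diet difference itself, which chose Tff3, and they are descriptions over 11958 genes searched. Within 1 diet the likeness was much weaker: r between Gm2a and Tff3 was 0.61 over 18 ketogenic and 0.12 over 18 chow arrays, and r between Khk and Tff3 was 0.10 over the ketogenic and 0.29 over the chow arrays. With group means removed, the closest genes were others, led by Zfp367 (r = 0.748), Il17ra (0.741) and Chtf8 (0.724).

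In intestine, Guca2a was the only one of the 6 other measured genes with a called diet difference in the main fit. That is 1 of 6, against 50.9% of the 12463 genes tested in intestine, of which 19.7% were called higher and 31.2% lower on the ketogenic diet. Over 18 ketogenic intestine arrays the lowest, median and highest Guca2a levels were 11.91, 12.19 and 12.65. Over 18 chow intestine arrays they were 12.18, 12.38 and 12.70. The ketogenic arrays were shifted down within a largely shared range. The means were 12.22 ± 0.20 in ketogenic and 12.40 ± 0.15 in chow intestine (SD, n = 18 each), a difference of -0.17 ± 0.04 (SE), or 1.13-fold (limma adjusted p = 0.00118). Guca2b, which encodes the related peptide uroguanylin, fell by nearly the same amount, with means of 13.15 ± 0.18 in ketogenic and 13.33 ± 0.11 in chow intestine and a difference of -0.18 ± 0.04 (1.13-fold; limma adjusted p = 8.4e-04).

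The other intestinal members differed little between diets. Muc2 averaged 12.98 ± 0.12 in ketogenic and 13.05 ± 0.13 in chow intestine, a difference of -0.07 ± 0.04 (SE; 95% interval -0.16 to 0.01; limma adjusted p = 0.152). Agr2 averaged 12.46 ± 0.13 in ketogenic and 12.41 ± 0.19 in chow intestine, a difference of 0.05 ± 0.05 (95% interval -0.05 to 0.16; limma adjusted p = 0.415). Spdef averaged 8.54 ± 0.10 in ketogenic and 8.56 ± 0.17 in chow intestine, a difference of -0.02 ± 0.04 (95% interval -0.11 to 0.07; limma adjusted p = 0.703) whose sign turned to 0.02 with quantile normalization. Zg16 averaged 13.12 ± 0.13 in ketogenic and 13.20 ± 0.11 in chow intestine, a difference of -0.08 ± 0.04 (95% interval -0.16 to -0.004; limma adjusted p = 0.0731). Muc13 averaged 12.68 ± 0.10 in ketogenic and 12.61 ± 0.10 in chow intestine, a difference of 0.07 ± 0.03 (95% interval 0.01 to 0.13; limma adjusted p = 0.0615). Zg16 and Muc13 lie at the threshold. Without the arrays that stood apart limma's adjusted p was 0.0180 for Zg16 and 0.0420 for Muc13, and 3 of the 6 genes were then called. Zg16 was also called with quantile normalization (limma adjusted p = 0.00839) and with median centring (0.0259). The share of all genes called in these other fits is not given (50.9% in the main fit), so the count of 3 is not read as a result. The median difference of the 6 genes was -0.05, beside -0.02 over all genes tested. The 1.5-fold size was reached by 0 of the 6.

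**Figure D3:**
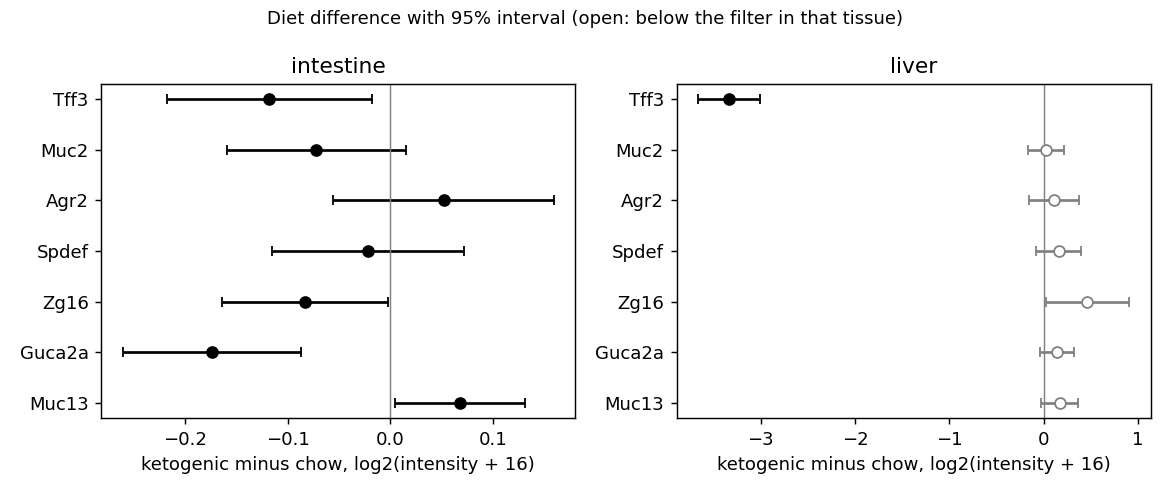
Ketogenic minus chow difference of each measured gene, on the log2(intensity + 16) scale, in intestine (left panel) and liver (right panel). Points are estimates from 36 arrays, bars are 95% intervals, and open grey points lie below the filter in that tissue and were not tested. The horizontal scales differ: the intestinal differences run between -0.17 and 0.07, and Tff3 in liver stands at -3.34.

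Guca2a was also the only measured gene of the set with a called daily rhythm, and with quantile normalization Muc13 and Zg16 were called as well. In ketogenic intestine its amplitude was 0.18 ± 0.05 (SE), with the peak at ZT 13.1 h (limma adjusted p = 0.0157). At ZT4 the 3 ketogenic arrays read 11.91, 12.03 and 12.16, and the 3 chow arrays 12.32, 12.35 and 12.43. At ZT12 the ketogenic arrays read 12.42, 12.49 and 12.65, and the chow arrays 12.39, 12.49 and 12.63. Ketogenic Guca2a lay below chow without overlap at ZT4, as did 18.8% of genes tested in intestine, and the ranges overlapped at the other 5 ZT. The difference of the group means was -0.17 at ZT0, -0.33 at ZT4, -0.25 at ZT8, 0.02 at ZT12, -0.29 at ZT16 and -0.02 at ZT20, and the diet by time point interaction was not called (limma adjusted p = 0.979). Without the ketogenic array ZT12 number 31 the amplitude was 0.15 and limma's adjusted p was 0.0590. In chow intestine the Guca2a amplitude was 0.14 ± 0.05 with its peak at ZT 11.2 h (limma adjusted p = 0.0913). Called rhythms thus numbered 1 of 7 in ketogenic intestine (background 14.6%) and 0 of 7 in chow intestine (background 8.87%), where limma's unadjusted p was under 0.05 for 2 of them.

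Muc13 had its lowest levels around the time of the Guca2a peak. Its fitted peak lay at ZT 1.9 h in ketogenic intestine (amplitude 0.08 ± 0.03; limma adjusted p = 0.173) and at ZT 22 h in chow intestine (amplitude 0.10 ± 0.03; limma adjusted p = 0.0744). With quantile normalization the Muc13 rhythm was called on both diets, with an amplitude of 0.11 in ketogenic intestine (limma adjusted p = 0.00794) and 0.12 in chow intestine (limma adjusted p = 0.00519). At ZT8 the ketogenic Muc13 arrays read 12.68, 12.70 and 12.81 and the chow arrays 12.48, 12.51 and 12.63. They did not overlap, with ketogenic arrays above chow arrays at ZT8 for 7.49% of genes tested in intestine, and the ranges overlapped at the other 5 ZT. At ZT12 the ketogenic arrays read 12.45, 12.56 and 12.61 and the chow arrays 12.46, 12.53 and 12.59. Without the arrays that stood apart the chow rhythms of Muc13 and Guca2a passed the threshold (limma adjusted p = 0.0356 and 0.0432). Those arrays are ketogenic, so the chow amplitudes stayed at 0.10 and 0.14, while the spread estimate shared by both diets changed. No measured gene had a called rhythm difference between diets or a called diet by time point interaction in intestine, nor an unadjusted p under 0.05 for either in limma (backgrounds 0.0401% and 0.0321%). In the authors' deposited table no JTK_CYCLE or BIO_CYCLE q-value of these genes was under 0.05 in any tissue and diet, and the lowest was 0.116 by JTK_CYCLE, for Muc13 in chow intestine.

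**Figure D4:**
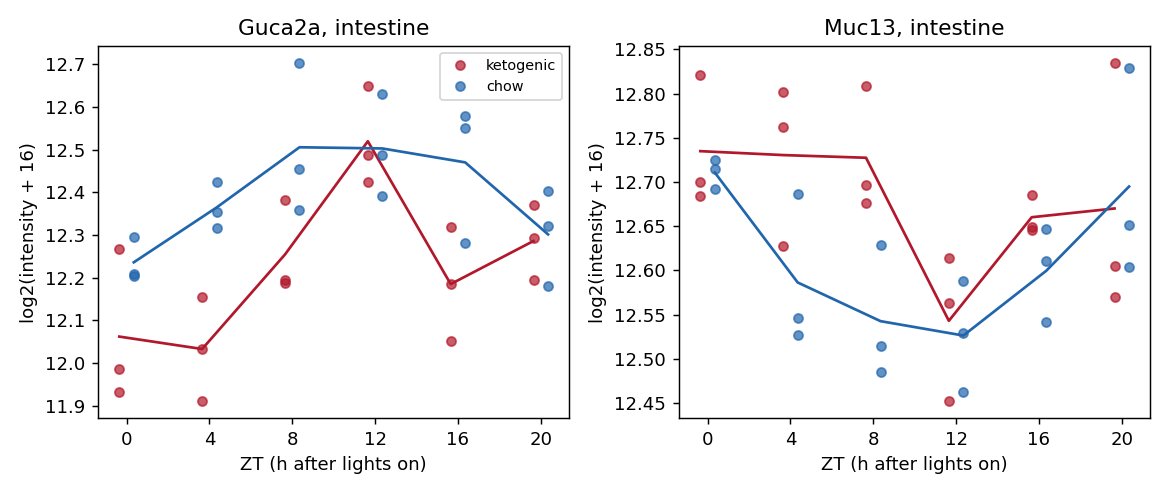
Guca2a (left panel) and Muc13 (right panel) in intestine, log2(intensity + 16) against ZT in hours. Points are single arrays, 3 for each diet and ZT, and lines join the group means. Ketogenic Guca2a lies below chow at ZT4 and meets it at ZT12, and Muc13 is lowest near ZT12 on both diets.

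Across single intestine arrays several of these genes varied together. After subtraction of the 12 group means, Tff3 and Muc2 had a Pearson r of 0.86 over 36 arrays (Spearman rho 0.81, and r 0.80 without the 2 arrays farthest from the median of Tff3). Tff3 had r of 0.79 with Spdef and 0.78 with Agr2. The median over the 21 pairs of 7 genes was 0.56, and 12 pairs were above 0.5. The r values of Muc13 lay between -0.02 (with Guca2a) and 0.44 (with Agr2). Other pairs lay in that range as well: Spdef with Zg16 (0.20), Spdef with Guca2a (0.41) and Agr2 with Guca2a (0.42). All genes of an array were read from the same sample and hybridisation, and these r values are given as descriptions. With quantile normalization the median was 0.39, and without the 3 arrays that stood apart it was 0.58.

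The pairwise r values were lower over the ketogenic arrays than over the chow arrays. Over the 18 ketogenic arrays the median r of the 21 pairs was 0.27, and over the 18 chow arrays it was 0.70. Without the 3 arrays that stood apart it was 0.30 over 15 ketogenic arrays. The spread within groups of Tff3 was 0.09 (SD) in ketogenic and 0.19 in chow intestine, that of Agr2 was 0.11 in ketogenic and 0.20 in chow intestine, and that of Spdef was 0.10 in ketogenic and 0.17 in chow intestine. Without the 3 arrays the ketogenic values were 0.09 for Tff3, 0.09 for Agr2 and 0.10 for Spdef. This contrast between diets was not tested. The chow array ZT8 number 10 was the lowest for Agr2 (-0.40 from its group mean), Muc2 (-0.30) and Spdef (-0.24), and stood at -0.25 for Tff3. The chow array ZT16 number 7 was the lowest for Tff3 (-0.32), and the chow arrays ZT12 number 32 (-0.23) and ZT4 number 6 (-0.21) were low for it as well. At the other end stood the chow array ZT8 number 12, at 0.26 for Agr2 and 0.22 for Tff3. The mean deviation of the 13 Paneth markers had r of 0.73 with Spdef, 0.72 with Agr2 and 0.54 with Tff3 over the 36 arrays, and that of the 18 enterocyte markers had r of -0.21, -0.09 and 0.07 with the same genes and 0.62 with Zg16.

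**Figure D5:**
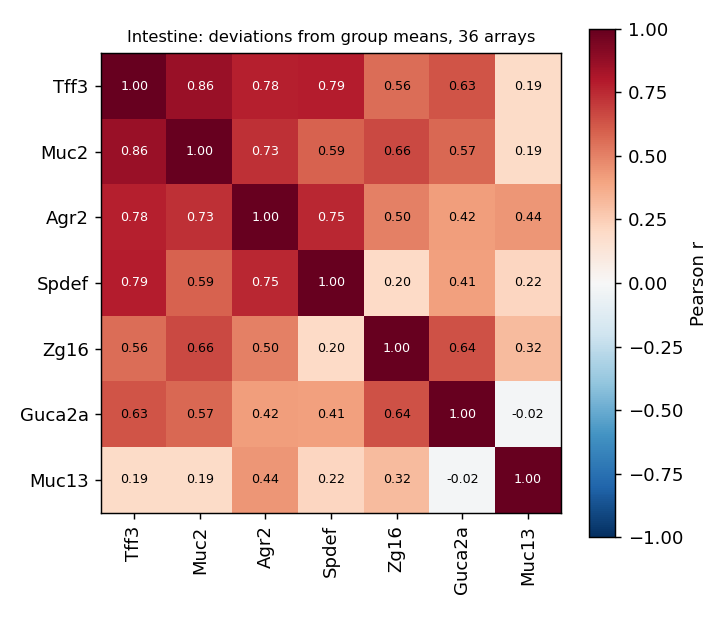
Pearson r between the 7 measured genes over 36 intestine arrays, after the mean of each of the 12 groups was subtracted. Colour and printed number give r, with red positive. Tff3, Muc2, Agr2 and Spdef share r of 0.59 to 0.86. The lowest value is -0.02, between Muc13 and Guca2a, and Spdef with Zg16 is also low (0.20).

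The genes nearest to Tff3, Muc2, Agr2 and Spdef over the intestine arrays included known goblet cell genes. Among 11963 genes, Tff3 was closest to Capn9 (r = 0.873), a calpain protease of digestive epithelium, and to Clca1 (0.870), a secreted protein of goblet cell mucus. Muc2 was closest to P2ry4 (0.942), a nucleotide receptor, and then to Clca1 (0.934) and Fer1l6 (0.932). Agr2 was closest to the kallikrein gene Klk1 (0.879), and Spdef to Hid1 (0.878), with Spink4, a goblet cell peptide, second for both (0.845 and 0.861). Guca2a was closest to other genes of the absorptive lining, the homeobox gene Isx (0.786), the amino acid carrier gene Slc6a20b (0.767) and the dipeptidase gene Dpep1 (0.767). Zg16 was closest to Zfand3 (0.871), and Muc13 to Rab5a (0.820), a GTPase of early endosomes.

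The upstream sequences of Muc2 and Agr2, whose r over single arrays was 0.26 over ketogenic and 0.91 over chow intestine arrays (0.42 over 15 ketogenic arrays without those that stood apart), and of Guca2a, whose level changed with diet, are printed here for context. RefSeq (GRCm38.p6) windows were found for 6 of the 8 genes, and Tff3 and Zg16 are not among them. Each sequence is the 250 bases before the gene start, on the plus strand, with motif letters in capitals.
Muc2, chr7:141690090-141690339: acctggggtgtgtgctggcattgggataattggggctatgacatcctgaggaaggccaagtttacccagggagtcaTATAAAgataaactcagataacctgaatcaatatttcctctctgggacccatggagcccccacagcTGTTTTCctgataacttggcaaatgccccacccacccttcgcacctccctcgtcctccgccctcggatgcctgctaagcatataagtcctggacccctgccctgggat
Agr2, chr12:35992675-35992924: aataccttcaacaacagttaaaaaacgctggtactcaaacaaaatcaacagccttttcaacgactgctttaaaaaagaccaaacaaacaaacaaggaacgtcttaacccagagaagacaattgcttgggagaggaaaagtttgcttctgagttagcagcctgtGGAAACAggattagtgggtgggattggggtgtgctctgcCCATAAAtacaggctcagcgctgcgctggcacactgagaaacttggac
Guca2a, chr4:119637482-119637731: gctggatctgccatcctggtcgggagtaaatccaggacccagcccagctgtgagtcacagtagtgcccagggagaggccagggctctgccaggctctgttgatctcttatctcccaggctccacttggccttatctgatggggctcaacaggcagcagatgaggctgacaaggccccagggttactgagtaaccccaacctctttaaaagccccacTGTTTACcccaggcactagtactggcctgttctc
The motifs searched on both strands were the TATA box TATAAA, a forkhead motif TGTTTNC, a CDX motif TTTATNG, whose reverse complement can overlap a TATA box, and an HNF4 motif CAAAGTNCA. The Muc2 window holds TATAAA, from base -174 relative to the gene start, and a forkhead match. The Agr2 window holds a forkhead and a CDX match on the minus strand, and the Guca2a window a forkhead match. Of the 7 windows of the 6 genes, 4 hold the forkhead motif, and the Spdef and Fcgbp windows hold none of the motifs. Over all 32851 windows of 300 bases, 13.62% hold TATAAA, 20.49% the forkhead motif, 10.91% the CDX motif and 1.41% the HNF4 motif. A match describes letters and not a bound site.

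Of the wider goblet cell programme, 121 other genes were listed (regulators, mucins and trefoils, secreted proteins, mucin glycosylation and secretory machinery), and 113 had a probe set. In intestine 95 of them were tested, of which 18 rose, 20 fell and 57 were not called. That is 40% called, beside the background of 50.9%, and the median difference was -0.03. The split depends on scaling: 25 rose and 17 fell with quantile normalization, and 11 rose and 27 fell with median centring, while over all genes tested the share of calls that were higher was 38.7% as deposited and 28.2% with median centring. In liver 52 were tested, of which 7 rose, 17 fell and 28 were not called (46.2%, beside the background of 48.3%). With median centring 4 rose and 21 fell in liver, where the share of higher calls over all genes was 39.9% as deposited and 28.1% with median centring.

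Among regulators in intestine, 10 were tested, 0 rose and 1 fell. That was Klf4, a zinc finger factor of goblet cell differentiation, with 14.21 ± 0.23 in ketogenic and 14.40 ± 0.25 in chow intestine, a difference of -0.18 ± 0.06 (SE; 1.14-fold; limma adjusted p = 0.0123), which was not called with quantile normalization (limma adjusted p = 0.0560). Atoh1, the factor that commits cells to the secretory lineage, averaged 8.99 ± 0.18 in ketogenic and 9.09 ± 0.38 in chow intestine (limma adjusted p = 0.393). Among the forkhead factors, Foxa3 differed by -0.19 ± 0.08 (limma adjusted p = 0.0555, under 0.05 with median centring, at 0.0348, and in 9 of 36 single omissions), and Foxa1 and Foxa2 by -0.07 and -0.02. Creb3l1 averaged 8.73 ± 0.19 in ketogenic and 8.72 ± 0.25 in chow intestine.

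Among secreted proteins and mucins in intestine the clearest difference was that of Dmbt1, a scavenger receptor protein of mucus. It averaged 12.75 ± 0.26 in ketogenic and 12.15 ± 0.17 in chow intestine, a rise of 0.60 ± 0.06 (SE), or 1.51-fold (limma adjusted p = 2.2e-08). Pigr, the receptor that carries immunoglobulin A across the lining, rose 1.26-fold (limma adjusted p = 6.2e-06), and the membrane mucin gene Muc4 rose 1.30-fold (limma adjusted p = 2.4e-05). Clca1 averaged 12.56 ± 0.17 in ketogenic and 12.69 ± 0.19 in chow intestine, a difference of -0.12 ± 0.06 (limma adjusted p = 0.0770). Clca1 was called with quantile normalization (0.0417), with median centring (0.0382), without the 3 arrays that stood apart (0.0423), and without the ketogenic array ZT8 number 26 (0.0298), the chow array ZT8 number 10 (0.0143) or the chow array ZT16 number 7 (0.0106). Of the 4 tested mucins and trefoils 3 rose and 1 fell, and of 14 tested secreted proteins 2 rose and 3 fell. Retnlb lay below the filter in both tissues.

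Among mucin glycosylation genes in intestine, 33 were tested, of which 4 rose and 7 fell. B3gnt7, which extends sugar chains, rose 1.26-fold, at 8.36 ± 0.17 in ketogenic and 8.03 ± 0.10 in chow intestine (limma adjusted p = 5.5e-09). C1galt1c1, the chaperone of the core O-glycan enzyme, fell 1.19-fold (limma adjusted p = 1.4e-04), and B4galnt2 fell 1.09-fold (limma adjusted p = 2.6e-04). Of 34 tested genes of the secretory machinery 9 rose and 8 fell. Rab27b, a GTPase of granule release, fell 1.28-fold, at 7.80 ± 0.14 in ketogenic and 8.15 ± 0.23 in chow intestine (limma adjusted p = 1.0e-04).

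In liver the wider list showed small differences. Pigr rose 1.20-fold, at 12.16 ± 0.08 in ketogenic and 11.90 ± 0.13 in chow liver (limma adjusted p = 8.3e-07), and Nlrp6, Muc6 and B3gnt7 rose between 1.09-fold and 1.13-fold. The sialyltransferase gene St3gal1 fell 1.28-fold, at 10.42 in ketogenic and 10.78 in chow liver (limma adjusted p = 2.8e-08), Ern1, an endoplasmic reticulum stress sensor, fell 1.30-fold, and St3gal4 and Galnt4 fell 1.26-fold and 1.22-fold. The forkhead factors Foxa1, Foxa2 and Foxa3 differed by -0.13, -0.21 and -0.16 (limma adjusted p = 0.0855, 0.0606 and 0.0617). These lie at the threshold: all 3 were called with median centring (0.0311, 0.0268 and 0.0320) and Foxa2 also with additive factors (0.0465), and single omissions called them in 3, 8 and 9 of 36 fits. No called gene of this list reached 1.5-fold in liver.

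Lists of other intestinal cell types are given beside the 19.7% of all genes tested in intestine that were called higher and the 31.2% called lower. Of 11 tested enteroendocrine markers 0 rose and 8 fell, with a median of -0.40, and of 10 tested tuft cell markers 2 rose and 7 fell, with a median of -0.33. Of 13 Paneth markers 2 rose and 2 fell (median -0.04), and of 18 enterocyte markers 4 rose and 8 fell (median -0.07). The mean level of the enterocyte markers per array spanned 12.24 to 12.84 in ketogenic and 12.44 to 12.74 in chow intestine. Of 12 stem cell and proliferation markers 4 rose and 1 fell, with a median of 0.12. The part of these cell types in the goblet cell values was not tested.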

How the data were processed

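The authors deposited linear intensities, 1 for each probe set on each array. They come from PLIER as run by Affymetrix Expression Console 1.1.1, per the submitters' processing notes, and background and normalization settings are not given in the sources used here. A deposited workbook also held the authors' JTK_CYCLE and BIO_CYCLE p-values and q-values, which were copied and not recomputed. Of 35556 probe sets, 23162 were given a gene symbol, 1373 of them from the workbook through RefSeq, and the probe set with the highest mean over 72 arrays stood for each gene. Values were taken as log2(intensity + 16), and 7.81% of them lay below that pseudocount. Precision is limited by the number of arrays.

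Groups came from the labels' tissue, diet and ZT. lmFit and eBayes of limma 3.58.1 (R 4.3.3) were run on all genes at or above the 40th percentile in the tissue. The diet effect was the mean of 6 ketogenic groups minus the mean of 6 chow groups, and a 24 h cosinor with moderated F tests served for rhythms. All tests were two-sided. The scripts were tested on simulated data.

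The members, the gene lists and the tests were chosen with earlier results of these data known. Named genes are the members, the 6 genes most like Tff3 in liver, the 3 most like each member in intestine, the 4 other goblet cell genes with the smallest adjusted p in each direction and tissue, and a few regulators and trefoils. Alternatives were other filters, pseudocounts, scalings and probe sets, a title-number block, a minimum fold, additive factors, any time difference, and leaving out arrays. In the main fits liver and intestine arrays were treated as unpaired, although some share diet, ZT and title number. The median correlation of deviations was 0.02 over 22 pairs with the same number and -0.01 over 86 pairs with different numbers. Such values cannot decide whether a liver and an intestine sample came from the same animal, and the labels do not state it.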

Additional observations from a re-analysis of the deposited data

How the results depend on the processing

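The Tff3 difference in liver lay between -3.60 (pseudocount of 1) and -3.23 under all settings and single omissions, and Guca2a kept its diet call in intestine except with a 1.5-fold minimum. The number of the 6 other members called for diet in intestine was 1 in the main fit. It was 2 with quantile normalization and with median centring, which added Zg16 (limma adjusted p = 0.00839 and 0.0259). An intensity trend with robust eBayes also gave 2, adding Muc13 (0.0474). The title number as a replicate block gave 3, adding Zg16 (0.0468) and Muc13 (0.0465). The number was 3 without the 3 intestine and 2 liver arrays, 0 with the 1.5-fold minimum, and 1 to 3 over single omissions. The share of all genes called is given for the main fits only, so counts of members under other settings are not read as results. Zg16 was called without the ketogenic arrays ZT0 number 1 (limma adjusted p = 0.0482) or ZT8 number 26 (0.0217), or the chow arrays ZT8 number 10 (0.0468), ZT16 number 7 (0.0336) or ZT20 number 13 (0.0371). Muc13 was called without the ketogenic arrays ZT4 number 19 (0.0387), ZT12 number 12 (0.0436) or ZT20 number 27 (0.0369), or the chow arrays ZT4 number 24 (0.0402), ZT8 number 11 (0.0448) or ZT20 number 31 (0.0285), and Muc2 without the chow array ZT8 number 10 (0.0295). Over 36 single omissions limma's adjusted p ranged 0.0217 to 0.133 for Zg16, 0.0285 to 0.111 for Muc13 and 0.0295 to 0.252 for Muc2. With no filter, 1 of 6 members was called for a tissue difference of the diet effect. These 6 lay below the liver filter value, and the share of all genes called is not given, so the count is not read as a result. Called rhythms of Tff3 in chow liver were 0, and 0 to 1 over single omissions. Called rhythms among the 7 measured members in chow intestine were 0, and 1 with quantile normalization and 2 without the 3 intestine arrays. In ketogenic intestine those of the 7 members were 1, 3 with quantile normalization, and 0 to 1 over single omissions. Tff3 was not among the members with a called rhythm in intestine, and its diet difference there was described with no test. Other goblet cell genes higher in liver were 7, 19 with no filter, 4 with a 60th percentile filter and with median centring, and 0 with the 1.5-fold minimum, where 0 were lower in liver; in intestine 11 were higher with median centring, and 1 was higher and 0 lower with the 1.5-fold minimum. Reversed signs were those of uncalled differences in intestine: Spdef (0.0150 with quantile normalization), Creb3l1 (-0.0115 with median centring, and -0.0215 to 0.0355 over single omissions) and Foxa2 (-0.0445 to 0.00751 over single omissions). Additive factors, the probe set with the highest mean in the tissue and a test of any time difference moved no count of members. The replicate block changed no other call of a member, and whether equal numbers mark the same animal is not stated. Apart from the smaller or larger number of genes or arrays in an alternative, the cause was not tested.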

Other observations

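Within the secretory machinery list, of which 9 rose and 8 fell in intestine, the following genes were picked after their values were seen, with no test of a theme. The protein disulfide isomerase genes Pdia5, Pdia4, Pdia6 and Pdia3 rose 1.24-fold, 1.17-fold, 1.12-fold and 1.08-fold on the ketogenic diet (limma adjusted p = 2.7e-05, 7.4e-04, 0.0212 and 0.0281), and the related Txndc5, Txndc11 and Qsox1 were not called. Xbp1, a transcription factor of the endoplasmic reticulum stress response, averaged 11.36 ± 0.14 in ketogenic and 11.26 ± 0.12 in chow intestine (SD, n = 18 each; limma adjusted p = 0.0234), and its upstream sensor Ern1 averaged 9.37 ± 0.25 in ketogenic and 9.27 ± 0.21 in chow intestine (limma adjusted p = 0.0321). In liver Ern1 was lower on the ketogenic diet, with a difference of -0.38 ± 0.06 (SE; limma adjusted p = 4.1e-06), and the difference between tissues was not tested. Rab27a and Rab27b, GTPases of granule docking, fell 1.14-fold and 1.28-fold, and the vesicle fusion gene Vamp8 fell 1.098-fold (limma adjusted p = 0.00222), while Rab3d, Sytl2, Sytl4, Rep15 and Scin were not called.

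Among genes that followed Muc2 and Tff3 closely over single intestine arrays, some had a called diet difference and others did not. Clca1 (limma adjusted p = 0.0770) and Muc2 were not called in the main fit, where 50.9% of all genes tested in intestine were. Fer1l6 averaged 10.00 ± 0.24 in ketogenic and 10.37 ± 0.33 in chow intestine, a 1.29-fold difference (limma adjusted p = 0.00215). Capn9 averaged 8.15 ± 0.13 in ketogenic and 8.37 ± 0.22 in chow intestine, a 1.17-fold difference (limma adjusted p = 0.00248). P2ry4, the gene closest to Muc2, differed by -0.29 ± 0.09 (SE), and its adjusted p is not given here. The difference of these from Muc2 was not tested. Apart from these genes, the fucosyltransferase gene Fut2 of the glycosylation list was picked after its values were seen. It averaged 9.81 ± 0.46 in ketogenic and 9.27 ± 0.31 in chow intestine, a 1.46-fold difference. No p-value and no r with Muc2 or Tff3 is given for it.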
